A study of Homo sapiens with 2 samples.

Results

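The genes described here are 10 genes of the heat shock response and of protein quality control: the heat shock factors HSF1 and HSF2, the HSF1-binding protein gene HSBP1, the co-chaperone genes BAG1 to BAG6, and CLU, which encodes clusterin. They were chosen by gene name, with earlier results of the same comparison known, and all 10 were found among the 10987 genes of the deposited table. Because they were selected on a readout that already included the large value of CLU, their values are given as a description, with no test. RNA sequencing compared 2 libraries, 1 labelled THP1 treated with bortezomib for 24 h (bort-treated) and 1 labelled untreated THP1. THP1 is a cell line from a human monocytic leukaemia, and bortezomib inhibits the proteasome, the complex that degrades proteins tagged with ubiquitin. The comparison asks which transcripts differ after 24 h of the inhibitor. Each condition has 1 library, so a difference has no replicate check and describes these 2 libraries.

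The values are FPKM, which count fragments relative to transcript length and to all mapped fragments, so levels can be compared between genes. The unit is taken from the header line of the table, which was deposited under a name that speaks of raw counts, and the values are not whole numbers. They summed to 210026 in the untreated and 221529 in the bort-treated library, and the median gene was at 5.85 and 6.02 FPKM. Sequencing depth is unknown, so no counting error is given. A log2 fold change is the difference of log2(FPKM + 1), bort-treated minus untreated. Because of the added 1 FPKM, changes of weakly expressed genes appear smaller than their FPKM ratio. A gene was called higher or lower when this difference reached 2-fold.

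The label THP1 was set against lists of markers. Among 15 markers of monocytes and myeloid cells, 6 had a value, while CD14, CSF1R, MPO, CEBPA, S100A8, FCGR1A, MNDA, FCN1 and ELANE were not among the listed genes. The summed level of the 6 was 18.5 FPKM in the untreated and 61.6 FPKM in the bort-treated library. The most abundant was LYZ, the lysozyme gene, at 7.61 and 28.7 FPKM. All 16 erythroid markers were listed, and their sum was 5094 FPKM in the untreated and 4453 FPKM in the bort-treated library. The fetal haemoglobin gene HBG1 was the most abundant, at 1487 and 1536 FPKM. A monocytic identity is thus not what these markers show, and the libraries are named by their labels only.

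The marker lists also differed between the libraries. Of the 6 monocytic and myeloid markers 3 were higher and 0 lower by at least 2-fold, with a median log2 fold change of 1.19. ITGAX, 1 of the 3, was at 0.165 FPKM in the untreated and 2.45 FPKM in the bort-treated library. The untreated value is near 0, and the log2 fold change was 1.57 with 1 FPKM added and 3.26 with 0.1 FPKM. ITGAM was also low, at 0.234 and 0.836 FPKM. CD68, a lysosomal glycoprotein of phagocytes, was at 5.94 FPKM in the untreated and 20.2 FPKM in the bort-treated library. Of the 16 erythroid markers 0 were higher and 5 lower, with a median of -0.48. Of all genes 8.08% were higher and 10.2% lower, the background for these and all later list counts from uncorrected values. With the trend of fold changes on transcript GC content removed, 1 erythroid marker was higher (TAL1) and 4 were lower, with a median of -0.13, and 5 monocytic and myeloid markers were higher, with a median of 1.47. The erythroid transcription factor gene GATA1 fell from 161.3 to 48.7 FPKM and KLF1 from 147.1 to 17.4 FPKM. Of the 16 markers 6 lay above 0, among them the embryonic haemoglobin gene HBE1 at 424.7 and 710.3 FPKM and the transcription factor gene TAL1 at 11.1 and 22.04 FPKM, both short of 2-fold. Other cell proportions and other RNA content per cell cannot be told apart in bulk RNA. The part of these markers in the values below was not tested.

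Heat shock factors are transcription factors that bind heat shock elements, alternating repeats of the letters GAA and TTC, in the promoters of chaperone genes. HSF1 is held inactive by chaperones such as HSP90 and HSP70 and is freed when unfolded proteins occupy them, and HSF2 is a related factor whose protein is degraded by the proteasome. HSBP1 binds the trimer domain of HSF1. BAG proteins carry a BAG domain by which most of them bind HSP70 and release its nucleotide, and each links HSP70 to another fate of the client protein. Clusterin is a secreted glycoprotein that keeps unfolded proteins soluble outside the cell.

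Promoter windows from RefSeq (GRCh38.p14) of 300 bases, from 250 before to 50 after the start site, were matched by symbol for 7 of the 10 genes in 10 windows. CLU, HSF1 and BAG4 had no matching entry. Both strands were searched for the HSE forms GAANNTTC and TTCNNGAA, which can overlap in a longer run, for the AP-1 motif TGANTCA, the CCAAT box CCAAT and the E-box CACGTG. The choice of motifs was partly made after the sequences were seen. Of all 35116 windows, 6.77% held GAANNTTC, 7.74% TTCNNGAA, 13.5% either form, 7.71% TGANTCA, 34.6% CCAAT and 7.26% CACGTG. By gene, either HSE form was in 17 of 24 textbook HSF1 target genes with an entry (70.8%) against 16.2% of 27305 genes. Among the 7 genes it was in BAG2 only, with these windows. The windows of BAG1, BAG5, BAG6 and HSBP1 held none of the letters searched.

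The windows of BAG3 and BAG2 and the first of 2 overlapping windows of HSF2 are shown because they hold the matches among the genes described, and that of the HSP70 gene HSPA1A shows an HSE for comparison. All 4 lie on the plus strand, at chr10:119651130-119651429 for BAG3, chr6:57172076-57172375 for BAG2, chr6:122399301-122399600 for HSF2 and chr6:31815293-31815592 for HSPA1A. Capitals mark the matches, and positions count from the start site.
BAG3: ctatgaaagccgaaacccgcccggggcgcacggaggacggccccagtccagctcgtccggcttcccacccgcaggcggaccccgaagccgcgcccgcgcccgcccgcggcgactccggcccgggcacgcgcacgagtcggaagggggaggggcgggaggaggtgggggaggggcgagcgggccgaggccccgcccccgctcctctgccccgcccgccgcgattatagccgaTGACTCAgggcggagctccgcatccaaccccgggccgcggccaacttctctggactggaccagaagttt
BAG2: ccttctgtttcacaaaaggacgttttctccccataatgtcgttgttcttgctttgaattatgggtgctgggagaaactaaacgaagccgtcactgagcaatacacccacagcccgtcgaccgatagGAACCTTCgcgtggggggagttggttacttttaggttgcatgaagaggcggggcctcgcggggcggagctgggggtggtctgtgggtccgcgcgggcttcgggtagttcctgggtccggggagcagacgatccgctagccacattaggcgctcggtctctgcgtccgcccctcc
HSF2: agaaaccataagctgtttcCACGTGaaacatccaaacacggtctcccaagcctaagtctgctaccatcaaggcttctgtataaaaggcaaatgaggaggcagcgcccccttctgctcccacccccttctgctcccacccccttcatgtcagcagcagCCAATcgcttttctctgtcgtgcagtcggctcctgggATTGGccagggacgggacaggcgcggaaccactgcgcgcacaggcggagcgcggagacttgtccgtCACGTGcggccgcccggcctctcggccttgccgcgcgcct
HSPA1A: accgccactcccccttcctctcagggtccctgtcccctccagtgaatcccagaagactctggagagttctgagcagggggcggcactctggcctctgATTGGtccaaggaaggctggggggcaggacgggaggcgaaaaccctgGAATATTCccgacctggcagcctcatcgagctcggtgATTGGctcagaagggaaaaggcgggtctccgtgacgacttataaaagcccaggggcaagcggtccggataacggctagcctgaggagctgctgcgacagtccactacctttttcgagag
The BAG3 window holds TGACTCA at -19 and is 75.3% G and C. The BAG2 window holds GAACCTTC at -124, and the HSPA1A window GAATATTC at -106. The HSF2 window holds CCAAT at -93, its reverse complement ATTGG at -56, and CACGTG at -231 and at 11. In the second HSF2 window, counted from another start site, CCAAT is at -194, ATTGG at -157 and CACGTG at -91. A match describes the letters of a window and says nothing of whether a factor binds there.

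Of the 10 genes 2 were higher by 2-fold or more in the bort-treated library, against 8.08% of all genes, and 0 were lower, against 10.2%. At 1.5-fold 4 were higher, against 20.8% of all genes, and 1 was lower, against 21.6%. These shares are printed beside the counts as background, and nothing is read from them because the choice of genes used this comparison. The median log2 fold change of the 10 genes was 0.43, and that of all genes was 0.0049. The spread among the 10 ran from -0.76 for BAG6 to 4.88 for CLU.

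**Figure D1:**
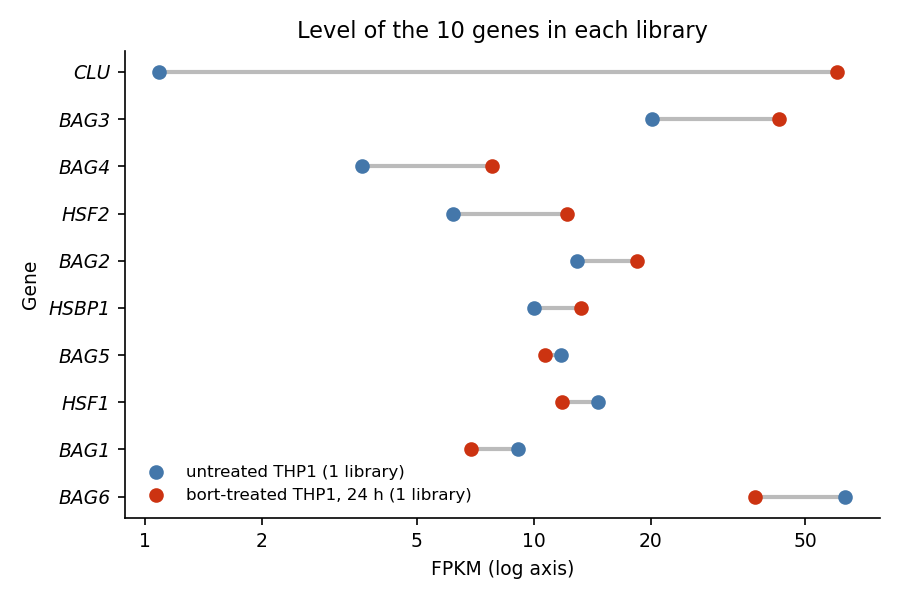
FPKM of each of the 10 genes in the untreated (blue) and bort-treated (red) library, 1 point per library on a log axis, ordered by log2 fold change. CLU spans 1.09 to 60.4 FPKM, and BAG6 is the gene with the most negative difference, at 63.4 and 37.1 FPKM.

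HSF1, the main heat shock factor, was at 14.6 FPKM in the untreated and 11.8 FPKM in the bort-treated library, a log2 fold change of -0.28 that did not reach 2-fold. HSF2 was at 6.19 and 12.2 FPKM, a log2 fold change of 0.88 that also stayed short of 2-fold. The ratio of the HSF1 to the HSF2 level was 2.36 in the untreated and 0.969 in the bort-treated library, and the bort-treated ratio was 1.91 with the GC trend removed. The sum of both levels was 20.8 and 24.1 FPKM. HSBP1 was at 10.003 and 13.2 FPKM, a log2 fold change of 0.37. Corrected for the GC trend, HSF2 was at 0.53, short of 1.5-fold, and HSBP1 at 0.22. HSF4, the 1 listed gene of 5 further HSF family and HSBP1 paralogue genes, was at 4.23 and 5.16 FPKM, a log2 fold change of 0.24 that was 0.77 with the GC trend removed. HSF4 shares exons with AC074143.1 on the same strand, so its value is uncertain. The sign of the HSF1 value was not stable, and with the GC trend removed it was 0.35.

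The list of textbook regulators of HSF1, among them chaperones, kinases and ubiquitin ligases, held 33 listed genes of 33. Of these 4 were higher and 5 lower by at least 2-fold, with a median log2 fold change of 0.02. After removal of the GC trend the counts were 3 and 2, and the median was 0.09. AKT1, a kinase of growth factor signalling, fell from 12.1 to 3.42 FPKM. FKBP4, an HSP90 co-chaperone, fell from 67.7 to 25.1 FPKM. The HSP70 genes HSPA1A and HSPA1B rose from 290.1 to 1015 FPKM and from 265.3 to 837.9 FPKM. These genes encode nearly identical proteins, so how fragments were divided between them is uncertain, and their summed level was 555.4 FPKM in the untreated and 1853 FPKM in the bort-treated library.

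Of 28 textbook targets of HSF1 outside the 10 genes, 27 were listed, 7 were higher and 1 lower by at least 2-fold. Their median log2 fold change was 0.15. HSPB8, a small heat shock protein gene, was at 0.031 FPKM in the untreated and 8.39 FPKM in the bort-treated library, the largest log2 fold change of the list, 3.19. The untreated value is near 0, so the size of this change is set by the pseudocount, with 6.02 at 0.1 FPKM and 8.10 with none. CACYBP was at 74.3 and 50.5 FPKM, a log2 fold change of -0.55, or -0.95 with the GC trend removed, that did not reach 2-fold. Of all genes 8.08% were higher and 10.2% lower, given as background. With the GC trend removed, the counts of targets past the threshold were also 7 and 1. In the uncorrected values 19 of 27 targets were on neither side of it. The lists share genes, so their counts are not separate evidence. HSPA1A and HSPA1B are counted among the regulators, the targets and the HSP70 partners of the BAG domain. FKBP4 is both a regulator and a target, and HSPB8 is also among the BAG3 partners below.

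Without removal of the GC trend, the summed level of BAG1 to BAG6 was nearly the same in both libraries. It was 121.0 FPKM untreated and 123.6 FPKM bort-treated, while its makeup differed. BAG6 made up 52.4% of the sum in the untreated and 30.0% in the bort-treated library. BAG3 made up 16.7% and 34.5%. The ratio of BAG6 to BAG3 was 3.14 in the untreated and 0.868 in the bort-treated library, so the order of these genes was exchanged. A ratio within a library does not depend on how the libraries are scaled, but it does depend on removal of the GC trend. With the trend removed, BAG3 was at 53.8 FPKM and BAG6 at 49.7 FPKM in the bort-treated library. The bort-treated sum was then above the untreated sum.

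**Figure D2:**
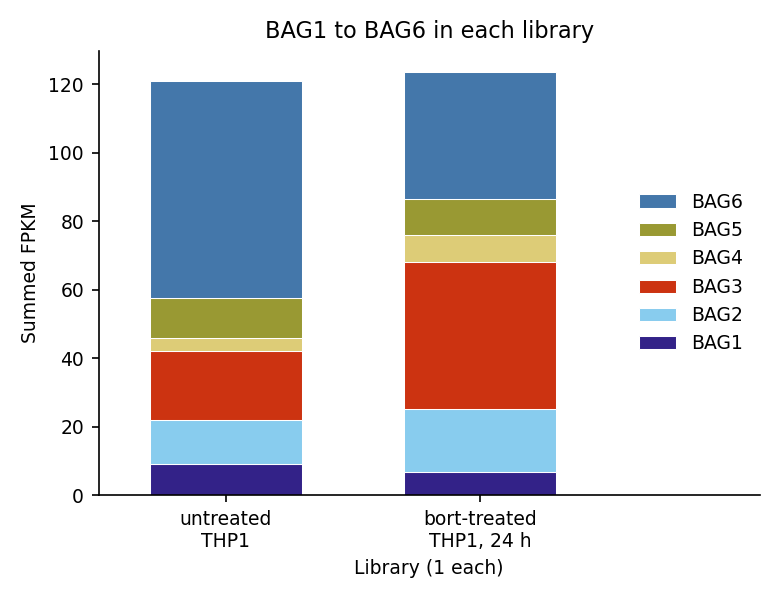
Summed FPKM of BAG1 to BAG6 in the untreated and bort-treated library, 1 bar per library, each stacked by gene from 0. The bars show values without removal of the GC trend. They reach 121.0 and 123.6 FPKM, with BAG6 at 52.4% and 30.0% and BAG3 at 16.7% and 34.5% of the sum.

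BAG3, which couples HSP70 to selective autophagy, rose from 20.2 to 42.7 FPKM, or by 1.05 on the log2 scale. It moved from rank 2138 to rank 744 by level among all 10987 genes. With the GC trend removed, the value was 1.38. BAG4, the silencer of death domains, was at 3.61 and 7.84 FPKM, a log2 fold change of 0.94 that passed 2-fold with a smaller or no pseudocount and with 2 of 3 other scalings, but was 0.56 with the GC trend removed. BAG2, an inhibitor of the ubiquitin ligase CHIP, was at 13.0 and 18.4 FPKM, a log2 fold change of 0.48 that was -0.035 with the GC trend removed.

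BAG1, which links HSP70 to the proteasome, was at 9.10 FPKM in the untreated and 6.89 FPKM in the bort-treated library, and BAG5, which carries several BAG domains, at 11.8 and 10.7 FPKM. Their log2 fold changes were -0.36 and -0.13. BAG6, which escorts newly made membrane proteins, was at 63.4 and 37.1 FPKM, a log2 fold change of -0.76. Corrected for the GC trend, BAG6 was at -0.33, short of 1.5-fold, BAG1 at -0.34 and BAG5 at -0.38. BAG6 was the most abundant of the 10 genes in the untreated library. In the bort-treated library the order by FPKM began with CLU, BAG3 and BAG6, and HSF1 went from the third to the seventh place, but was in place 4 with the GC trend removed. In GENCODE 29, exons of BAG2, BAG4, BAG5, BAG6 and HSF1 overlap those of a coding gene on the opposite strand (RAB23, LSM1, KLC1, APOM and DGAT1). Whether the counting used strand is not stated, so these values are less certain. HSBP1 has 2 annotated pseudogenes.

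**Figure D3:**
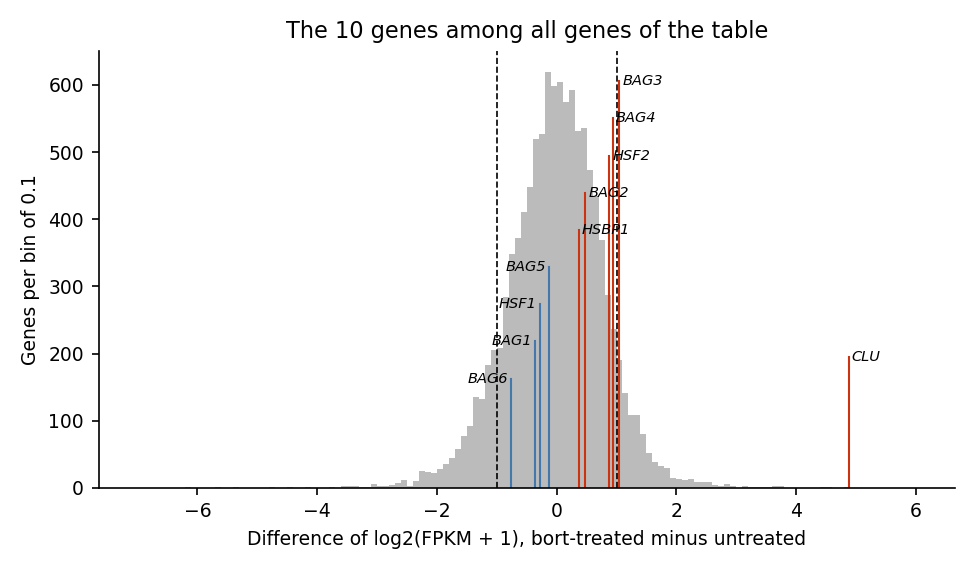
Histogram of the difference of log2(FPKM + 1), bort-treated minus untreated, over all 10987 genes in bins of 0.1, with the 10 genes marked and dashed lines at 2-fold. CLU at 4.88 lies far right of the others, which fall between -0.76 and 1.05.

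BAG3 acts with small heat shock proteins and the ligase CHIP (STUB1) in chaperone-assisted selective autophagy. Of 15 genes of that pathway 12 were listed, 3 were higher and 1 lower by at least 2-fold, with a median log2 fold change of 0.60. SQSTM1, which encodes the autophagy receptor p62, rose from 22.3 to 165.8 FPKM, and the small heat shock protein gene CRYAB from 1.33 to 5.11 FPKM. In the bort-treated library the level of HSPB8, named above, was 0.197 of that of BAG3. STUB1, the 1 gene past the threshold downwards, fell from 38.7 to 14.4 FPKM. As background, the calls among all genes made up 8.08% upwards and 10.2% downwards. No direction of the pathway is read from these counts. SQSTM1, CRYAB and STUB1 have exons overlapping a coding gene on the opposite strand, which makes their values less certain. With the GC trend removed, STUB1 was at -0.73 and short of 2-fold, and 4 genes of the pathway were higher and 0 lower.

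BAG6 works with GET4 and UBL4A to pass tail-anchored proteins to the membrane. Of 11 listed genes of that route 1 was higher and 2 lower by at least 2-fold, with a median log2 fold change of -0.48, which was -0.076 with the GC trend removed. GET4 fell from 37.1 to 8.34 FPKM, and SGTA, which receives these proteins first, from 86.9 to 31.6 FPKM. CAMLG, which encodes a receptor at the membrane, rose from 11.4 to 38.3 FPKM. UBQLN1 was at 11.9 and 24.1 FPKM, a log2 fold change of 0.97. Corrected for the GC trend, SGTA was at -0.91 and no longer past 2-fold, which left 1 gene lower, and UBQLN1 was at 0.45. GET4 shares exons with SUN1 on the same strand in GENCODE 29, so its value is uncertain.

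The HSP70 proteins are the partners of the BAG domain. Of 6 such genes 5 were listed, and HSPA1A and HSPA1B were higher by 2-fold or more. The list median was 0.44, and 0.81 with the GC trend removed. HSPA8, the constitutive HSC70 gene, was at 532.6 and 539.7 FPKM. HSPA8 has 17 annotated pseudogenes, and its value is uncertain where fragments could be assigned to them. HSPA1L was at 1.45 and 1.39 FPKM. The summed HSP70 level per summed BAG level was 9.01 in the untreated and 19.4 in the bort-treated library. The BAG sum includes BAG6, which made up 52.4% of it in the untreated and 30.0% in the bort-treated library. A ratio to the BAG genes without BAG6 is not given.

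Other nucleotide exchange factors serve the same HSP70 partners or those of other compartments. Of 8 listed genes 1 was higher and 1 lower by 2-fold or more, with a median log2 fold change of -0.10. GRPEL2, a mitochondrial exchange factor, rose from 2.03 to 8.16 FPKM, and HSPBP1, a cytosolic one, fell from 46.7 to 18.5 FPKM. With the GC trend removed, HSPBP1 was at -0.66 and short of 2-fold, which left 0 genes lower, and the list median was -0.46. HSPH1, the HSP110 gene, was at 28.7 and 55.7 FPKM, a log2 fold change of 0.93, and SIL1, a factor of the endoplasmic reticulum, was at -0.98. Corrected for the GC trend, these were 0.55 and -0.60.

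CLU rose from 1.09 FPKM in the untreated to 60.4 FPKM in the bort-treated library, a log2 fold change of 4.88. This was the largest log2 fold change of all 10987 genes at a pseudocount of 1 FPKM, ahead of AC120057.3 at 4.52 and CXCL8 at 4.47. The ratio of the FPKM values was 55.5. CLU went from rank 9516 to rank 489 by level. The untreated value is low, and the log2 fold change was 5.26 with a pseudocount of 0.5 FPKM, 5.67 with 0.1 FPKM and 5.80 with none. HSPB8 was above CLU with 0.1 FPKM, at 6.02, and with none, at 8.10. At 1 FPKM with the GC trend removed it was 5.02.

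The genes most like CLU by Euclidean distance in log2(FPKM + 1) over the 2 libraries were KLF6, PRDM9, YPEL5, CXCL8 and CNN1, at distances of 1.22 to 1.42. For BAG3 they were CEBPB, CAPN2, PIP4K2A, POLR2K and CLIC2, at 0.057 to 0.106. For BAG6 they were DPP7, PRELID1, ABCF2, ATIC and FKBP2, at 0.058 to 0.080. With 2 libraries this likeness rests on a pair of values per gene. The larger distances for CLU go with the largest log2 fold change of all genes at a pseudocount of 1 FPKM, known when CLU was chosen. Nothing further is read from them.

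Clusterin is taken up by receptors of the LDL receptor family and shares its clients with other secreted proteins. Of 13 such genes 5 were listed, 1 was higher and 0 lower by at least 2-fold, with a median log2 fold change of 0.36. After removal of the GC trend, 2 of them passed 2-fold upwards and the median was 0.47. The receptor gene LRP8 was at 4.87 and 5.57 FPKM. APOE, the apolipoprotein E gene, was at 22.04 and 17.2 FPKM, a log2 fold change of -0.34 that was 0.47 with the GC trend removed.

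Clusterin is also a protein of platelet granules. Of 15 megakaryocytic and platelet markers 5 were listed, 0 were higher and 1 lower by at least 2-fold, and PF4, PPBP, ITGB3 and GP9 were not among the listed genes. Their sum was 182.8 FPKM in the untreated and 13.4 FPKM in the bort-treated library, of which GP1BB made up 176.5 and 5.38 FPKM. GP1BB shares exons with SEPT5 on the same strand, so its value is uncertain. The other 4 were each at or below 3.05 FPKM in both libraries.

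Fold changes of all genes followed transcript GC content. The median log2 fold change was 0.36 for 4062 genes below 45% GC and -0.43 for 3349 genes at 55% GC or more. The 10 genes ranged from 37.0% for BAG2 to 64.7% for HSF1. CLU, at 51.7%, and BAG3, at 56.9%, stayed past 2-fold with this trend removed. HSF1 and BAG2 changed sign.

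**Figure D4:**
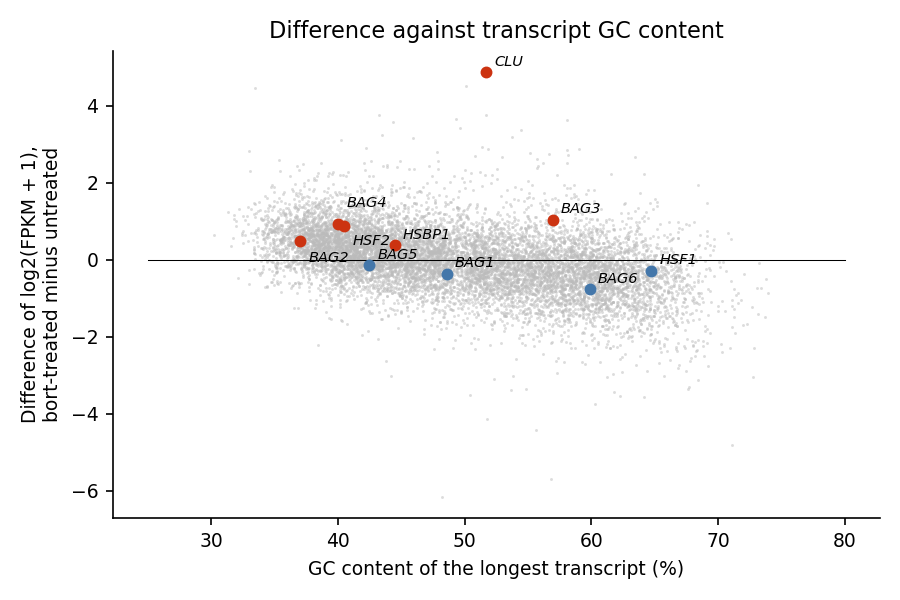
Difference of log2(FPKM + 1), bort-treated minus untreated, against the GC content of the longest transcript in percent, 1 grey point per gene, with the 10 genes in red (above 0) and blue (below 0). HSF1 at 64.7% and BAG2 at 37.0% lie near the ends of the range of the 10, and their sign turns when the trend is removed.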

How the data were processed

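RNA sequencing was analysed for 2 libraries of the study, 1 labelled bort-treated THP1 (24 h) and 1 labelled untreated THP1. For alignment the authors used HISAT2 2.0.4, and for reconstruction of the transcriptome StringTie 1.2.3. The authors deposited 1 FPKM value for every gene and library. The submitters' processing notes name GRCh37. The labels name a TruSeq kit and the methods a stranded KAPA kit, and use of strand in counting is not given in the sources used here. The table holds genes reaching about 0.501 FPKM in 1 library. A symbol on 2 identifiers occurs 7 times, none of them among the 10 genes.

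Fold changes were differences of log2(FPKM + 1), called at 2-fold. No test was possible with 1 library per condition. Of genes with a single transcript, 15 and 20 lay below 0.2 FPKM, so the value of 1 read could not be recovered. The 10 genes and 11 lists of partner, target and marker genes were chosen with earlier results of these data known. For each list, the 2 highest and 2 lowest genes, and all past 2-fold where these were 6 or fewer, were eligible to be named. The values of some genes of the lists are not reported here. GC content came from the longest transcripts of GENCODE 29 (10907 genes, 99.3%), and its trend was removed by a lowess fit of span 0.3. The libraries were also scaled by the upper quartile, by the median of ratios, and by the sum of all but the 20 most abundant genes. The steps were checked on simulated data. The software was pandas 2.3.3 and numpy 2.4.6 in Python 3.11.15, with lowess from statsmodels 0.14.6 and plots from matplotlib 3.10.9.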

Additional observations from a re-analysis of the deposited data

How the results depend on the processing

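No paired analysis was possible because there is a single library for either condition, and none could be left out. Of 70 values of the 10 genes under 7 alternatives, leaving out the filter on low values, which cannot move a gene's own value, 63 kept direction and side of 2-fold, 5 (all BAG4) passed 2-fold, and 2 reversed. Genes higher by 2-fold or more numbered 888, against 1576 when 0.1 FPKM was added, 1654 with no pseudocount, 2282 at 1.5-fold and 92 at 4-fold. Genes lower numbered 1125, against 1658 when 0.1 FPKM was added, 1708 with no pseudocount, 681 with the GC trend removed, 2378 at 1.5-fold and 135 at 4-fold. Among the 10 genes 2 were higher, against 4 at 1.5-fold and 1 at 4-fold, and 0 were lower, against 1 at 1.5-fold.

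With the GC trend removed, the log2 fold change was 0.348 for HSF1, -0.0349 for BAG2, 0.0239 for HSPA1L, 0.467 for APOE and -0.0257 for HSPA8, each of the opposite sign to the value reported. HSPA1L also reversed under upper-quartile scaling (0.0270) and under scaling to the sum without the top 20 genes (0.0313). The cause was not tested. The share of called genes that were higher was 44.1%, and 53.6%, 54.2% and 53.0% under upper-quartile scaling, scaling to the sum without the top 20 genes, and removal of the GC trend. The direction of the medians of all 11 lists was the same in 88 of 88 values, but their size was not. Under scaling to the sum without the top 20 genes, the exchange factor median was -0.00313, against -0.105. That of the HSF1 regulators was 0.134, against 0.0191. Of 294 values of the 42 list genes eligible to be named, under the same 7 alternatives, 261 kept direction and side of 2-fold. A further 24 passed 2-fold, 4 fell short of it and 5 reversed. The alternatives for list genes, list medians and BAG shares were chosen after seeing the data. With the GC trend removed, BAG3 made up 38.9% and BAG6 35.9% of the summed BAG level in the bort-treated library.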
